A study of Homo sapiens with 10 samples.

Results

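A group of 10 genes that encode histone H3 acetyltransferases or their scaffold subunits was examined in the 2 peak lists deposited for ZMYND8 chromatin immunoprecipitation followed by sequencing (ChIP-seq) in HEK293 cells, an established human embryonic kidney line. The rule names the genes for their products and sets no threshold on a ChIP-seq value. They are KAT2A, KAT2B, CREBBP, EP300, KAT6A, KAT6B, KAT7, BRPF1, BRPF3 and BRD1, 10 of 20098 protein-coding genes counted on chromosome X and the autosomes. All 10 were found in the annotation. The series holds 10 samples. ChIP of ZMYND8, of FLAG-ZMYND8, of H3K27ac and of H3K14ac was done in 2 replicates each, 1 input and 1 FLAG input complete the set, and chromatin was digested with micrococcal nuclease. For the ZMYND8 list an antibody to the protein was used, and the labels of these samples describe a stable Flp-In T-REx HEK293 line with either full-length 3×FLAG-ZMYND8 or its N228F mutant, without saying which. For the FLAG-ZMYND8 list, the cells carried inducible full-length 3×FLAG-ZMYND8, were treated with 10 nM doxycycline, which per the labels induced its overexpression, and the chromatin was precipitated with anti-FLAG. The level of the tagged protein was not measured in these files. Each list is 1 set of called intervals with no replicate, read count or informative score. The depth is therefore unknown, no error between replicates can be given, and the 10 genes are described by counts beside the same counts over all protein-coding genes, without a test. A missing peak means that no interval passed the authors' calling threshold.

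Histone acetyltransferases transfer an acetyl group from acetyl-CoA to lysines of histone tails, and bromodomains bind the acetylated lysine. KAT2A (GCN5) and KAT2B (PCAF) are the alternative catalytic subunits of the SAGA and ATAC complexes and are best known for acetylation of H3K9 and H3K14. CREBBP (CBP) and EP300 (p300) are paralogous coactivators and the main writers of H3K27ac at enhancers. KAT6A (MOZ), KAT6B (MORF) and KAT7 (HBO1) belong to the MYST family, and the scaffolds BRPF1, BRPF3 and BRD1 (BRPF2) hold these enzymes on chromatin and direct them to histone H3. ZMYND8 is a reader with adjoining PHD, bromodomain and PWWP modules, and the study examined its occupancy together with H3K14ac. The study also used RNA interference against P300, PCAF and ADA2a, which it names together as acetyltransferases that control K14ac. The genes of these 3 proteins, EP300, KAT2B and TADA2A, are described here, TADA2A among the subunits of SAGA and ATAC.

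A set of stretches under the peaks is shown first, because position and sequence are all that the lists contain. Each was read from GRCh37, the same build as hg19, in the direction of its gene. Capitals mark the GC box GGGCGG, the ETS site CCGGAAG, the NRF1 half-site TGCGCA and the CCAAT box CCAAT on either strand. The KAT2A, CREBBP and BRD1 stretches are the whole ZMYND8 peaks upstream of those starts, and the KAT2B stretch is the part of its ZMYND8 peak that an upstream FLAG-ZMYND8 peak also covers. The BRPF3 stretch is the FLAG-ZMYND8 peak that is the only one at that start. The KAT6B stretch is a whole intronic ZMYND8 peak of 151 bp, of which a FLAG-ZMYND8 peak covers 75 bp.
KAT2A (chr17:40273545-40273695, minus strand): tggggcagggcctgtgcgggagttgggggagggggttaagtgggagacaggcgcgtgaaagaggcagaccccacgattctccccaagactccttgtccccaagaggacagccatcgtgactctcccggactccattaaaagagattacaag
CREBBP (chr16:3930939-3931158, minus strand): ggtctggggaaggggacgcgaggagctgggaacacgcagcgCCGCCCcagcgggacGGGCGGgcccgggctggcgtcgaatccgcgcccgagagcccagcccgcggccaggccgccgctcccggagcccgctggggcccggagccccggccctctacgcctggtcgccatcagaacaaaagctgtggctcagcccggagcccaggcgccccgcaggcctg
KAT2B (chr3:20081389-20081623, plus strand): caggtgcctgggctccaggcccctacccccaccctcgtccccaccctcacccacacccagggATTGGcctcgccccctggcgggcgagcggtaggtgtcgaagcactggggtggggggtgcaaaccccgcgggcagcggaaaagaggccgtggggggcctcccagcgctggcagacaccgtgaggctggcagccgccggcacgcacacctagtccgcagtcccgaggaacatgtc
BRD1 (chr22:50221913-50222119, minus strand): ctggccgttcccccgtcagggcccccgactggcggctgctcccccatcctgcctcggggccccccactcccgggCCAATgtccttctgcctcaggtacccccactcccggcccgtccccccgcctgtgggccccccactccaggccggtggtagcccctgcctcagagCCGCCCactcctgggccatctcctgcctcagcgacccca
BRPF3 (chr6:36163833-36163999, plus strand): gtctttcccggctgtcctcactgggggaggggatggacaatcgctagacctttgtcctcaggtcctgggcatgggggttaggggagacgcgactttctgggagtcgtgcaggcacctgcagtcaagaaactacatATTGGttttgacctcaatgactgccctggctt
KAT6B intronic peak (chr10:76728646-76728796, plus strand): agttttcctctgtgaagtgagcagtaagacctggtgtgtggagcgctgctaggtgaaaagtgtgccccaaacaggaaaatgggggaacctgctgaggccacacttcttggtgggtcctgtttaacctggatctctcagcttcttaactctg

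The promoter stretches of CREBBP, BRD1 and KAT2B were rich in G and C. Their GC contents were 77.7, 74.9 and 71.9%, and they held 27, 12 and 17 CpG sites. Those of KAT2A and BRPF3 were lower, at 58.9% with 6 CpG sites and 56.3% with 5. Among the letters searched, the CREBBP peak held 2 GC boxes and the BRD1 peak 1 GC box and 1 CCAAT box, and the KAT2B and BRPF3 stretches 1 CCAAT box each. The KAT2A peak and the intronic KAT6B peak held none of the 4. In the central 151 bp of the ZMYND8 peaks at the starts of the 10 genes, a GC box lay in 5 of 7, against 39.0% of the 6360 ZMYND8 peaks at all protein-coding starts. In the central 167 bp of the FLAG-ZMYND8 peaks it lay in 5 of 22, against 29.3% of 19184. The same windows held a CCAAT box in 1 of 7 and 5 of 22, against 9.62 and 11.2%, an NRF1 half-site in 0 of 7 and 1 of 22, against 4.40 and 2.69%, and an ETS site in 0 of 7 and 0 of 22, against 5.09 and 3.01%. In the RefSeq promoter table (GRCh38.p14, 250 bp before to 50 bp after the start), 9 of the 10 genes were matched. A GC box lay in 6 of these 9 and in 59.3% of 15289 protein-coding promoters, a CCAAT box in 0 of 9 and 36.6%, an NRF1 half-site in 3 of 9 and 10.8%, and an ETS site in 1 of 9 and 14.4%. These are matches of letters and do not show a bound factor.

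Each of the 10 genes had a peak of at least 1 list with its midpoint within 3 kb of the transcriptional start site (TSS, the 5′ end of the gene record), whereas 37.2% of protein-coding genes had none. A ZMYND8 peak lay at 7 of 10 starts, against 34.1% of all protein-coding genes, and a FLAG-ZMYND8 peak at 9 of 10, against 58.1%. Both lists had a peak at 6 of 10, namely KAT2A, KAT2B, CREBBP, KAT6A, KAT6B and BRD1, against 29.4%. Among all protein-coding genes, 5905 of the 6856 with a ZMYND8 peak at the start also had a FLAG-ZMYND8 peak, against 6 of 7 here. Of the 11670 with a FLAG-ZMYND8 peak, 5905 also had a ZMYND8 peak, against 6 of 9 here. EP300 had only a ZMYND8 peak, and KAT7, BRPF1 and BRPF3 had only FLAG-ZMYND8 peaks. The enzymes of the KAT2, CREBBP/EP300 and KAT6 pairs were thus all in the ZMYND8 list, and of the remaining 4 genes only BRD1 was.

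**Figure D1:**
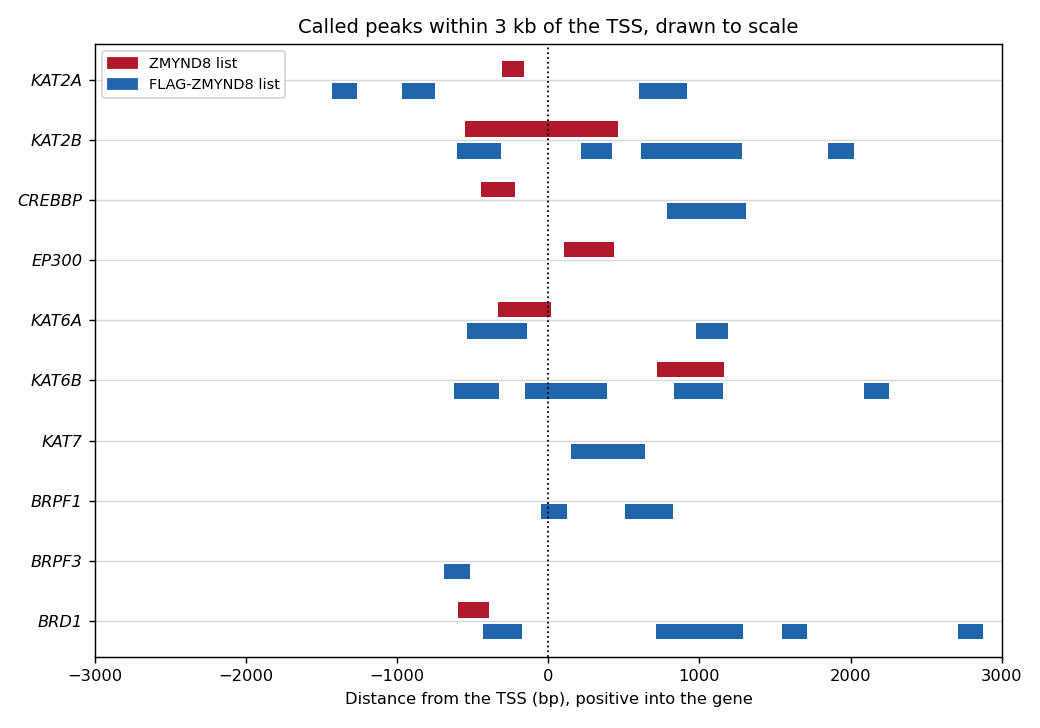
Peaks within 3 kb of the TSS of the 10 genes, drawn to scale as bars against the distance from the TSS in bp, with ZMYND8 in red above and FLAG-ZMYND8 in blue below each line. Each of 7 genes has 1 ZMYND8 bar, EP300 has no FLAG-ZMYND8 bar, and KAT2B, KAT6B and BRD1 have 4 FLAG-ZMYND8 bars each.

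Each of the 7 genes had exactly 1 ZMYND8 peak at its start, and all 7 midpoints lay within 1 kb, against 79.3% of all ZMYND8 peaks at protein-coding starts. Their widths were 151 bp at KAT2A, 207 at BRD1, 220 at CREBBP, 330 at EP300, 350 at KAT6A, 444 at KAT6B and 1009 at KAT2B. The KAT2B peak, rank 823 of 15086 by width, was the widest by far and the KAT2A peak was at the minimum of the list. The median of the 7 was 330 bp, against 226 bp for all ZMYND8 peaks at protein-coding starts, of which 36.2% were at the minimum width. By midpoint, 5 of the 7 lay upstream and 2 downstream of the TSS, and the upstream peaks of KAT2B and KAT6A covered it. Of all such peaks, 69.1% had their midpoint downstream of the nearest protein-coding TSS. The FLAG-ZMYND8 list had 22 peaks at 9 starts, 7 upstream and 15 downstream, against 62.6% downstream among all. Of the 22, 14 lay within 1 kb, against 63.3%. For both lists, side and distance among all peaks were measured from the nearest protein-coding TSS, but here from the TSS of the gene in question. At least 3 FLAG-ZMYND8 peaks were found at KAT2A, KAT2B, KAT6B and BRD1, 4 of 10 genes against 14.5% of protein-coding genes. Their widths ran from 167 to 669 bp with a median of 274.5 bp, against 227 bp for all FLAG-ZMYND8 peaks at protein-coding starts, and 7 of 22 were at the minimum width, against 36.0%. Just inside the window lay a FLAG-ZMYND8 peak of 167 bp 2793 bp into BRD1, and just outside it lay peaks of 167 bp 3774 bp into KAT6B and of 304 bp 3815 bp into CREBBP.

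The lists met at the same bases at KAT2B, KAT6A, KAT6B and BRD1 only. The 4 ZMYND8 peaks that overlapped a FLAG-ZMYND8 peak are 57.1% of the 7, against 56.4% of all ZMYND8 peaks at protein-coding starts, and the 5 FLAG-ZMYND8 peaks that overlapped a ZMYND8 peak are 22.7% of the 22, against 21.4%. Sharing at these starts was therefore near that at all protein-coding starts. Over the whole lists, 40% of ZMYND8 and 10.7% of FLAG-ZMYND8 peaks were shared. The overlap was 443 bp at KAT2B, 323 bp at KAT6B, 193 bp at KAT6A and 40 bp at BRD1.

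KAT2A and KAT2B, the acetyltransferases of SAGA and ATAC, differed most in the extent of ZMYND8. KAT2A (chr17:40265129-40273385, minus strand) had the 151 bp ZMYND8 peak shown above, 235 bp upstream of its start. Its 3 FLAG-ZMYND8 peaks had midpoints 1350 and 861 bp upstream and 758 bp downstream, with widths of 167, 214 and 322 bp. No base was shared, and the nearest edges of the 2 lists were 444 bp apart. Both upstream FLAG-ZMYND8 peaks were nearer to the start of HSPB9, a small heat shock protein gene on the opposite strand with its start 1437 bp upstream of that of KAT2A, and lay 576 and 87 bp from it. KAT2B (chr3:20081938-20195896, plus strand) had a ZMYND8 peak of 1009 bp, chr3:20081389-20082397, that covered the TSS and held 119 CpG sites at a GC content of 77.1%. FLAG-ZMYND8 peaks of 292 and 208 bp overlapped its upstream part and its downstream part, with midpoints 461 bp upstream and 319 bp downstream. The second of these lay wholly inside the ZMYND8 peak, with its midpoint in a coding exon. Further FLAG-ZMYND8 peaks of 669 and 167 bp followed in the intron at 945 and 1936 bp, and no other gene start lay within 3 kb. ZMYND8 peaks thus covered 151 bp at KAT2A and 1009 bp at KAT2B, and FLAG-ZMYND8 peaks covered 703 and 1336 bp.

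CREBBP and EP300, which encode the paralogous coactivators, differed more in the FLAG-ZMYND8 than in the ZMYND8 list. At CREBBP (chr16:3775055-3930714, minus strand) the ZMYND8 peak upstream of the TSS and the FLAG-ZMYND8 peak in an intron were separated by 1009 bp without a peak, and the FLAG-ZMYND8 peak, chr16:3929406-3929929, held 48 CpG sites in 65.1% GC. At EP300 (chr22:41488596-41576081, plus strand) the ZMYND8 peak of 330 bp, chr22:41488701-41489030, had its midpoint 269 bp downstream in the untranslated part of an exon, with 29 CpG sites. It was the only peak of either list at that start, and the nearest FLAG-ZMYND8 peak, 167 bp wide, lay 17513 bp into the gene. MIR1281, a microRNA gene with its start 79 bp upstream of the TSS, lay outside the peak. EP300 was the only 1 of the 10 genes with a ZMYND8 peak and no FLAG-ZMYND8 peak at its start. Both lists thus had a peak at 6 of the 7 genes with a ZMYND8 peak, against 5905 of 6856 among all protein-coding genes. The FLAG-ZMYND8 list is the longer, with 63690 peaks against 15086.

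KAT6A and KAT6B, the MOZ and MORF genes, had overlapping peaks of both lists. At KAT6A (chr8:41786997-41909512, minus strand) the ZMYND8 peak of 350 bp covered the TSS, with its midpoint 161 bp upstream, and shared 193 bp with a FLAG-ZMYND8 peak of 398 bp 342 bp upstream. A further FLAG-ZMYND8 peak of 214 bp lay 1082 bp into the gene. At KAT6B (chr10:76584685-76792382, plus strand) the ZMYND8 peak of 444 bp lay 938 bp downstream of the TSS and wholly contained a FLAG-ZMYND8 peak of 323 bp at 992 bp. The other 3 FLAG-ZMYND8 peaks, of 296, 542 and 167 bp, lay 474 bp upstream, across the TSS at 114 bp, and at 2174 bp. KAT6B has 25 annotated starts of coding transcripts, and that of its representative transcript lies 1673 bp into the gene record. Counted from that start, the shared site is upstream, as it is at KAT6A and BRD1.

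KAT7, BRPF1 and BRPF3 had no ZMYND8 peak at the start. At KAT7 (chr17:47865986-47912388, plus strand), which encodes HBO1, the only peak was a FLAG-ZMYND8 peak of 487 bp with its midpoint 396 bp downstream. FAM117A starts 556 bp into KAT7 on the opposite strand, and the peak was nearer to that start, at 160 bp. The nearest ZMYND8 peak was 38847 bp upstream of KAT7. BRPF1 (chr3:9773413-9789703, plus strand) had FLAG-ZMYND8 peaks of 167 bp across the TSS and 318 bp at 663 bp, both in the untranslated part of an exon. BRPF3 (chr6:36164521-36200567, plus strand) had the 167 bp FLAG-ZMYND8 peak shown above, 605 bp upstream and no wider than the list's minimum, and its antisense gene BRPF3-AS1 starts 461 bp downstream. The nearest ZMYND8 peak, 1181 bp wide, was 65604 bp upstream of BRPF3. BRPF3 thus had the least peak coverage of the 9 starts in the FLAG-ZMYND8 list and none in the other.

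BRD1 (chr22:50166931-50221521, minus strand), the third scaffold, was unlike BRPF1 and BRPF3 in having a ZMYND8 peak at the start. That peak of 207 bp lay 495 bp upstream and met a FLAG-ZMYND8 peak of 257 bp, 303 bp upstream, at its edge. FLAG-ZMYND8 peaks of 576, 167 and 167 bp followed at 1003, 1627 and 2793 bp in introns, and the first of these held 73 CpG sites at a GC content of 70.0%. FLAG-ZMYND8 peaks covered 1167 bp at the start of BRD1, against 485 bp at BRPF1 and 167 bp at BRPF3.

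All 10 gene bodies, from the TSS to the 3′ end, contained a FLAG-ZMYND8 peak, against 64.8% of protein-coding genes, and 6 of 10 contained a ZMYND8 peak, against 37.5%. The genes had a median length of 71.0 kb against 27.3 kb, and long genes have more room for a peak. KAT2A with 8.26 kb and BRPF1 with 16.3 kb are shorter than 27.3 kb. The part of gene length in these shares was not tested. The bodies held 78 FLAG-ZMYND8 peaks, 26 in KAT6B, 20 in CREBBP, 11 in KAT2B, 6 in BRD1, 5 in KAT6A, 3 in EP300, 2 each in KAT2A, BRPF1 and BRPF3, and 1 in KAT7. KAT6B and CREBBP together held 59.0% of them. By count of all peaks, KAT6B ranked 81 and CREBBP 162 among the 20098 genes, an order that turned when peaks in recurring sequence were left out, as given with the 31-mers. Per 10 kb of gene the order changed. KAT2A came first with 2.42 peaks, a value above that of 90.7% of protein-coding genes, which rests on 2 peaks. The second of them, 7105 bp into KAT2A, lay nearer to the start of DHX58, a gene of the RIG-I-like receptor family, at 1548 bp. KAT2A was followed by CREBBP with 1.28, KAT6B with 1.25, BRPF1 with 1.23, BRD1 with 1.10 and KAT2B with 0.965. The lowest were BRPF3 with 0.555, KAT6A with 0.408, EP300 with 0.343 and KAT7 with 0.216. KAT7 was below the median of 0.263 over all protein-coding genes, which include those without a body peak. Among protein-coding genes with a FLAG-ZMYND8 peak in the body the median was 0.66, and BRPF3, KAT6A, EP300 and KAT7 were below it.

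**Figure D2:**
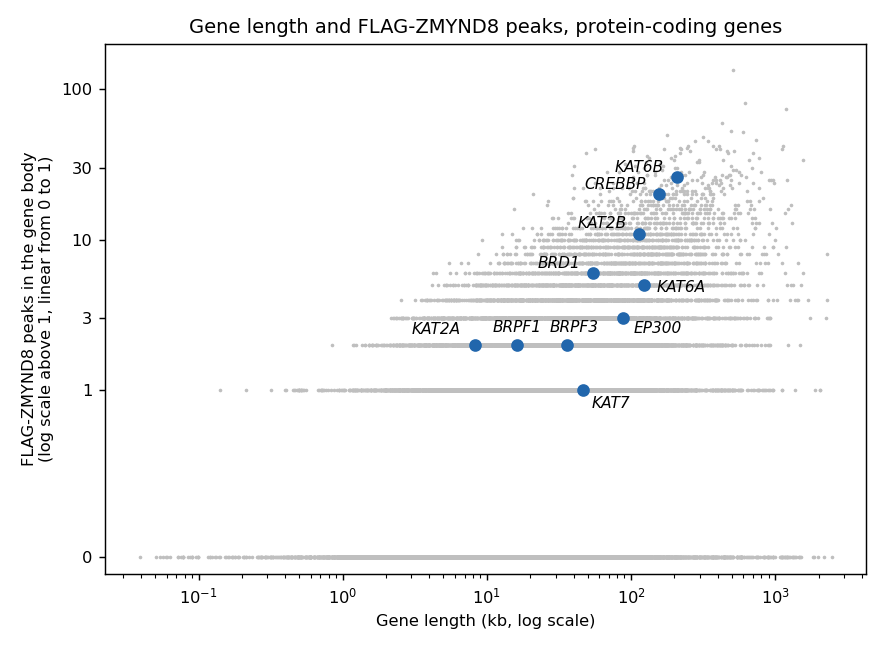
FLAG-ZMYND8 peaks in the gene body (vertical, log scale above 1) against gene length in kb (horizontal, log scale) for all protein-coding genes in grey and the 10 acetyltransferase genes in blue. KAT6B with 26 and CREBBP with 20 peaks are the highest of the 10 when all peaks are counted (12 and 16 without peaks of under 50% unique 31-mers), and KAT7 with 1 is the lowest.

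The paralogous pairs were unequal within their bodies too. CREBBP is 156 kb and EP300 87.5 kb long, and their FLAG-ZMYND8 density was 1.28 and 0.343 per 10 kb. KAT6B is 208 kb and KAT6A 123 kb long, with 1.25 and 0.408 per 10 kb. Among the scaffolds, BRD1 and BRPF1 had 1.10 and 1.23 per 10 kb and BRPF3 0.555. These densities include body peaks within 3 kb of the TSS. Beyond 3 kb, peaks were counted without regard to gene length, so their order cannot be set against that of the densities. The scaffolds had 0 FLAG-ZMYND8 peaks there in BRPF1, 2 in BRPF3 and 3 in BRD1. Of the pairs, CREBBP had 19 and EP300 3, and KAT6B had 23 and KAT6A 4. KAT2B had 8 and KAT2A 1, whereas by density KAT2A was the higher, with 2.42 against 0.965 per 10 kb. These are 1 value per gene and list, so whether the pairs differ beyond the variation between replicates could not be tested.

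Beyond 3 kb from the TSS, 8 of 10 genes had a FLAG-ZMYND8 peak in the body, against 48.8% of the 18375 protein-coding genes longer than 3 kb, and 5 of 10 had a ZMYND8 peak, against 20.7%. Of these 63 FLAG-ZMYND8 peaks, 58 had their midpoint in an intron, 4 in a coding exon, in KAT2A, EP300, KAT6B and BRD1, and 1 in an untranslated part of an exon in KAT6A. The peaks were narrow, with 69.8% at the minimum width of 167 bp and none above 426 bp. That share was close to the 63.0% over the list's peaks in all protein-coding gene bodies beyond 3 kb of a TSS. In the first 50% of the gene length lay 46 of the 63, or 73.0%, beside 52.5% when the peaks of all protein-coding genes were summed. For the ZMYND8 list the shares were 50% of 8 and 51.3%. These shares were not tested, and 50 of the 63 peaks lie in KAT6B, CREBBP and KAT2B. CREBBP had 17 of its 20 body peaks in its first 50% and none beyond 107 kb, whereas those of KAT6B reached 197 kb, 94.9% of the gene. The ZMYND8 list had 8 peaks beyond 3 kb, 3 in KAT6B, 2 in BRD1 and 1 each in KAT2B, CREBBP and BRPF1. All 8 were intronic and at the minimum width of 151 bp. That width was found in 65.6% of the ZMYND8 peaks in all protein-coding gene bodies beyond 3 kb of a TSS. A FLAG-ZMYND8 peak overlapped 2 of the 8, both in KAT6B, or 25%, and 2 of the 63 FLAG-ZMYND8 peaks were shared, or 3.17%. Among all peaks in protein-coding gene bodies beyond 3 kb of a TSS, 29.3% of ZMYND8 and 5.41% of FLAG-ZMYND8 peaks were shared.

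Peaks at the starts and peaks inside the genes differed in how often their sequence recurs in the genome. All 31-mers of all 7 ZMYND8 and all 22 FLAG-ZMYND8 peaks at the starts occurred once in GRCh37. The same share was not counted over the peaks at all protein-coding starts. Of the 63 FLAG-ZMYND8 peaks beyond 3 kb, 26 (41.3%) had fewer than 50% of their 31-mers unique, and so did 3 of the 8 ZMYND8 peaks. In windows of 167 bp tiled over the same parts of the 10 genes it was so for 540 of 4897. The lists' peaks in protein-coding gene bodies beyond 3 kb of a TSS were sampled too. Among 1 in 10 of those of FLAG-ZMYND8 it was so for 25.6% of 2898, and among 1 in 2 of those of ZMYND8 for 10.1% of 2456. The genes differed, with 14 of 23 such peaks in KAT6B and 5 of 8 in KAT2B, but 4 of 19 in CREBBP. Tiled windows gave similar shares in these 3 genes, of 12.0, 11.4 and 10.1%. Without such peaks the bodies held 12 of 26 FLAG-ZMYND8 peaks in KAT6B, 16 of 20 in CREBBP, 6 of 11 in KAT2B, 3 of 5 in KAT6A and 2 of 3 in EP300, so that CREBBP and not KAT6B came first by count. Per 10 kb this left 0.578 in KAT6B, 1.03 in CREBBP, 0.527 in KAT2B, 0.245 in KAT6A and 0.229 in EP300. Of the ZMYND8 peaks, 2 of 4 were left in the body of KAT6B and 0 of 1 in that of KAT2B. Of the 2 shared body peaks of KAT6B, the one shown above, at 144036 bp, was unique throughout and the other was among those under 50%. How the authors placed reads with several matches is not given in the sources used here, and the part of such placement in the body peaks was not tested.

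**Figure D3:**
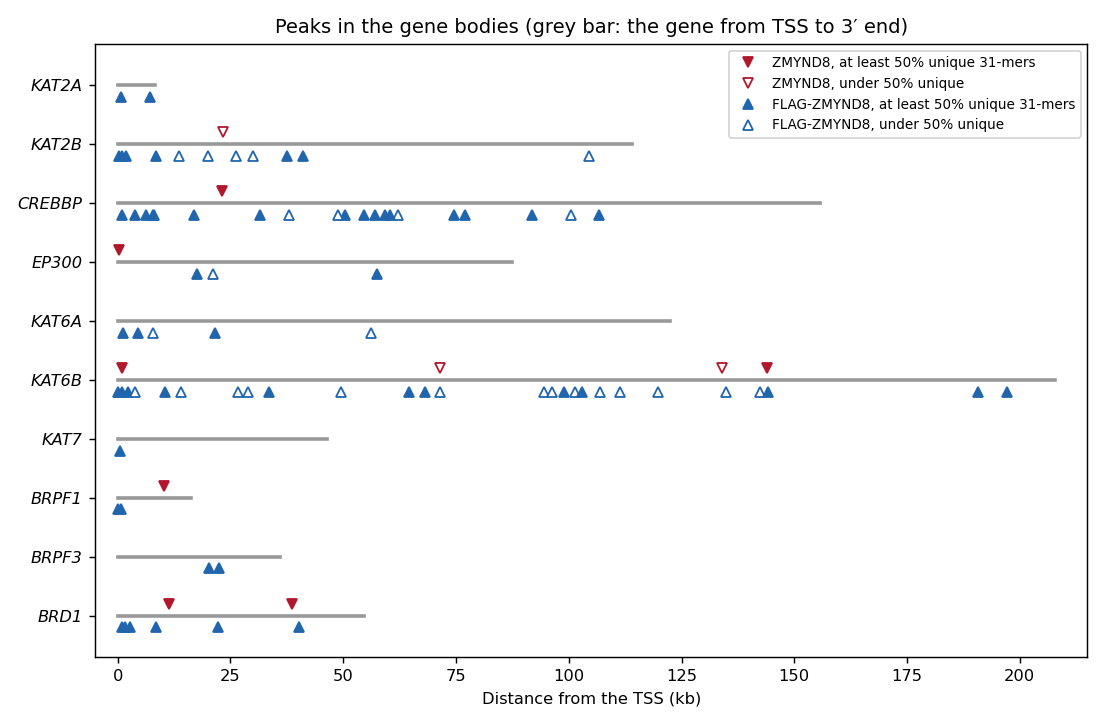
Positions of peaks along the bodies of the 10 genes, against the distance from the TSS in kb, with ZMYND8 in red above and FLAG-ZMYND8 in blue below a grey bar for the gene. Open symbols are peaks with under 50% of their 31-mers unique in the genome, and they make up 14 of the FLAG-ZMYND8 symbols of KAT6B and none of those at the starts.

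A few peaks lay within 3 kb past the 3′ ends and were not counted above. Past BRPF1, 1 ZMYND8 peak of 190 bp and 3 FLAG-ZMYND8 peaks of 167, 336 and 167 bp lay nearest to the start of OGG1, a DNA glycosylase gene, at 228 bp for ZMYND8 and at 1000, 343 and 507 bp for FLAG-ZMYND8. Single FLAG-ZMYND8 peaks of 167 bp lay past KAT6B and BRD1, 8126 and 12839 bp from the nearest annotated start.

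Subunits and partners of these enzymes, other acetyltransferases and deacetylases were taken from 4 lists of 40 genes in all, each with its start examined in the same way. Of the 21 subunits of SAGA and ATAC, 14 had a ZMYND8 peak at the TSS, 18 a FLAG-ZMYND8 peak and 13 both. The widest ZMYND8 peaks were at DR1, 867 bp, and SUPT3H, 681 bp, and the most FLAG-ZMYND8 peaks were at USP22, the SAGA deubiquitinase, with 5. ZZZ3 and TADA2A followed with 4 each. TADA2A, which encodes ADA2a and was singled out as a target of the study's RNA interference, had in addition a ZMYND8 peak at the minimum width of 151 bp. KAT14, also an acetyltransferase of ATAC, was named after its value was seen. It was the only 1 of the 40 with a ZMYND8 peak, of 398 bp, and no FLAG-ZMYND8 peak at the start. Of the 6 partners of MOZ, MORF and HBO1, 3 had a ZMYND8 and 5 a FLAG-ZMYND8 peak. ING5, a subunit that BRPF complexes contain, and MEAF6 had the widest ZMYND8 peaks, 832 and 797 bp, and the HBO1 scaffold gene JADE1 had 3 FLAG-ZMYND8 peaks and no ZMYND8 peak. ING4 and JADE2 had 2 FLAG-ZMYND8 peaks each.

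Of 9 other lysine acetyltransferase genes, 5 had a ZMYND8 and 6 a FLAG-ZMYND8 peak at the start. GTF3C4, a subunit of TFIIIC, had the widest ZMYND8 peak of the 40, 1318 bp, followed among the 9 by the nuclear receptor coactivator gene NCOA3 with 641 bp. NCOA1 and NCOA2 had the most FLAG-ZMYND8 peaks, 3 each. Of the 4 class I histone deacetylase genes, whose products remove the acetyl group, 1 had a ZMYND8 and 2 a FLAG-ZMYND8 peak. HDAC1 had both, a ZMYND8 peak of 151 bp and 4 FLAG-ZMYND8 peaks, and HDAC3 had 2 FLAG-ZMYND8 peaks. Over the 4 lists, 23 of 40 genes had a ZMYND8 and 31 of 40 a FLAG-ZMYND8 peak, or 57.5 and 77.5%, beside 34.1 and 58.1% of all protein-coding genes. The 10 acetyltransferase and scaffold genes, at 7 and 9 of 10, were thus close to the SAGA and ATAC subunits, and nothing is shown to be particular to them.

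**Figure D4:**
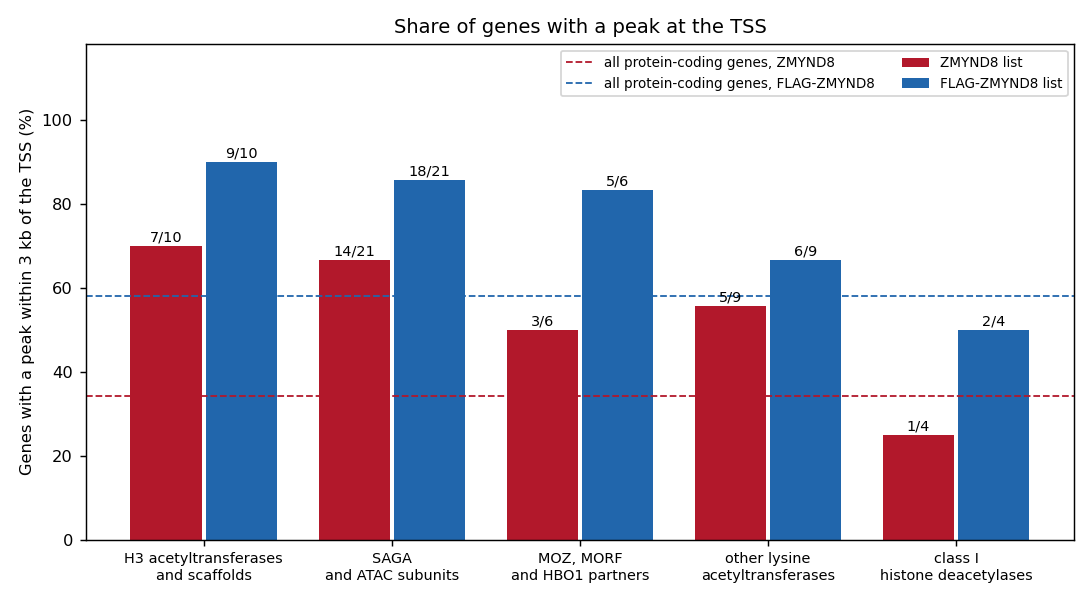
Percent of genes with a peak within 3 kb of the TSS in the ZMYND8 (red) and FLAG-ZMYND8 (blue) lists for the 10 genes and the 4 other lists, with the number of genes above each bar and dashed lines for all protein-coding genes. All bars lie above their dashed line apart from those of the class I deacetylases, 1 of 4 and 2 of 4.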

How the data were processed

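ChIP-seq of ZMYND8 and FLAG-ZMYND8 was analysed as 2 deposited BED lists of 6 columns. Before they deposited the lists, the authors aligned reads by BWA-MEM (BWA 0.7 in the submitters' processing notes) to hg19, and profiles were made with HOMER. Peak-calling settings, the control used and the treatment of the 2 replicates are not given in the sources used here. The score that the authors deposited is 1 in every row, so width was used for size. H3K14ac, H3K27ac and input samples were not used here. Positions fit the chromosome lengths of GRCh37 and were compared with GENCODE release 44 on GRCh37.

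A peak was assigned by its midpoint, to a TSS within 3 kb or to the gene body, and was shared when it overlapped the other list by at least 1 bp. Copies of 31-mers were counted over both strands of GRCh37. The genes, lists, motifs and alternatives were chosen with earlier results of these data known, and the 31-mer count was added after the peaks were seen. All 10 genes and every peak at their starts are named. Other genes are those with a start within 3 kb, up to 2 per list with the widest ZMYND8 peak and up to 2 with the most FLAG-ZMYND8 peaks at the start, ties included. Outside this rule, DHX58 and OGG1 were named as the nearest starts to peaks in or past KAT2A and BRPF1, and KAT14 after its value was seen. The functions that place and overlap peaks were tested on planted peaks. No test was made, as each list is 1 set of intervals without replicates. Python 3.11.15, numpy 2.4.6, pandas 2.3.3, pysam 0.24.0 and matplotlib 3.10.9 were used.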

Additional observations from a re-analysis of the deposited data

How the results depend on the processing

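No paired analysis was possible because neither list carries a replicate number, so leaving out a replicate was not possible either. Of 39 combinations of a count and an alternative, 32 stayed within 1.5 times the main count and 7 did not. Within 500 bp of the TSS, genes with a peak of both lists fell from 6 to 3, and FLAG-ZMYND8 peaks at the starts fell from 22 to 8, or to 14 within 1 kb. Keeping only peaks wider than the minimum lowered the gene-body peaks to 2 of 10 (ZMYND8) and 29 of 78 (FLAG-ZMYND8). A reciprocal overlap of 50% lowered the shared peaks to 2 in each list, from 6 for ZMYND8 and 7 for FLAG-ZMYND8, counted over starts and bodies. Narrower windows and fewer peaks can only lower a count. The number of genes with a ZMYND8 peak at the start ranged from 6 to 8 and with a FLAG-ZMYND8 peak from 6 to 9. The highest ZMYND8 count came with transcript starts, which added BRPF1 through an internal start. Keeping peaks with at least 50% unique 31-mers, an alternative chosen after seeing the data, left 7 of 10 ZMYND8 and 52 of 78 FLAG-ZMYND8 body peaks. The unknown depth limits any reading of a missing peak.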
